A study of Mus musculus with 12 samples.

Results

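The transcripts described here are those of the chemokines and their conventional receptors, chosen by name alone: every gene whose symbol in the 12 deposited tables is *Ccl* or *Cxcl* (ligands) or *Ccr* or *Cxcr* (receptors) followed by a number, with a closing letter allowed for CC ligands. This gave 59 of the 54532 gene IDs, 43 of ligands and 16 of receptors, under 53 symbols, because 5 symbols had more than 1 gene ID. Of the 59, 50 were above 0 in at least 1 library and 9 were listed at 0 in all 12, namely both IDs of *Ccl19* and of *Ccl21b*, 1 ID each of *Ccl21a*, *Ccl21c*, and *Ccl27a*, and *Ccl26* and *Ccl27b*.

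Colon and urinary bladder were taken from male mice of 5 to 7 weeks, 7 days after the first of 5 daily injections of 1 mg tamoxifen, with 3 libraries per tissue and genotype and 1 mouse behind each library. Y/T KO mice carried floxed *Yap1* and *Wwtr1* (the genes of YAP and TAZ) and a tamoxifen-inducible Cre under the smooth muscle *Myh11* promoter, whereas Ctrl mice had the floxed alleles and the tamoxifen but no Cre. The colons were those of mice 788, 786, and 787 (Ctrl) and 759, 783, and 780 (Y/T KO), the bladders those of mice 784, 785, and 788 (Ctrl) and 782, 783, and 780 (Y/T KO). Mice 788, 783, and 780 thus gave both tissues, and the mice numbered 9. Controls with Cre alone were not analysed here, so that effects of Cre with tamoxifen and of the deletion cannot be told apart.

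Chemokines are small secreted proteins that bind G protein-coupled receptors on leukocytes and steer their migration. Inflammatory ligands are induced in macrophages, epithelium, and stroma and call in monocytes, neutrophils, or T cells, whereas homeostatic ligands are made constantly and place cells within a tissue. In the colon, CCL28 of the epithelium attracts plasma cells that carry CCR10, and CCL20 attracts cells that carry CCR6. The receptors are carried mainly by blood-derived cells, and in whole tissue fewer cells of a type and less RNA per cell cannot be told apart.

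Values are TPM (transcript abundance scaled to transcript length and to the library total, so that genes can be compared within a library), and those of single libraries are given as deposited, in the order of the mice above. Fold changes and tests used TPM rescaled by median-of-ratios size factors, as log2(TPM + 0.1), a scale on which the change of genes near 0 is understated. Genes reaching 0.5 TPM in 3 or more libraries were tested with limma, and a gene was called at a Benjamini-Hochberg adjusted p under 0.05 over all genes tested. The smallest p of an exact two-sided permutation test is 0.10 for 3 mice against 3. Aligned sequence ran from 2.80 to 3.94 gigabases per library. Whether any of the mice were litter mates is not stated in the labels, and p-values measure the spread between these mice.

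*Yap1* ranged from 45.8 to 54.9 TPM in Ctrl colon and 41.3 to 47.0 in Y/T KO colon, and from 98.6 to 110 TPM in Ctrl bladder (109.8 at most) and 69.4 to 72.1 in Y/T KO bladder, and *Wwtr1* overlapped between genotypes in both tissues (16.8 to 21.5 and 17.9 to 22.7 TPM in the colon, 32.5 to 61.6 and 48.3 to 60.8 TPM in the bladder). The log2 fold changes of the 9 smooth muscle markers lay below 0 in both tissues, and none was called. Epithelial markers of each organ were present in its own libraries, with *Cdx2* at 30.0 to 89.7 TPM in the colons and listed at 0 in all bladders. *Muc2* was also listed at 0 in all bladders but was low in the colons too, at 0.0288 to 0.918 TPM. Some libraries stood apart within their group. First, 3 bladder libraries (Ctrl 784 and Y/T KO 783 and 780) held transcripts of the prostate, with *Sbp* at 36341, 39648, and 27206 TPM against 14.3 to 35.3 TPM in the other bladders, and the summed striated muscle markers reached 1714, 4603, and 5010.5 TPM in the same libraries against 1018.5 to 1222 TPM. Second, the colon of Y/T KO mouse 780 held the highest value of 23 of the 36 members tested in the colon, 63.9%, against 22% of all genes tested. Last, the bladder of Ctrl mouse 785 held the highest value of 19 of the 41 members tested there, 46.3% against 21.5% of all genes, and the bladder of Y/T KO mouse 783 held the lowest value of 24 of them (58.5% against 19.5%). These libraries were kept, and values without them stand beside some of the results they touch.

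**Figure D1:**
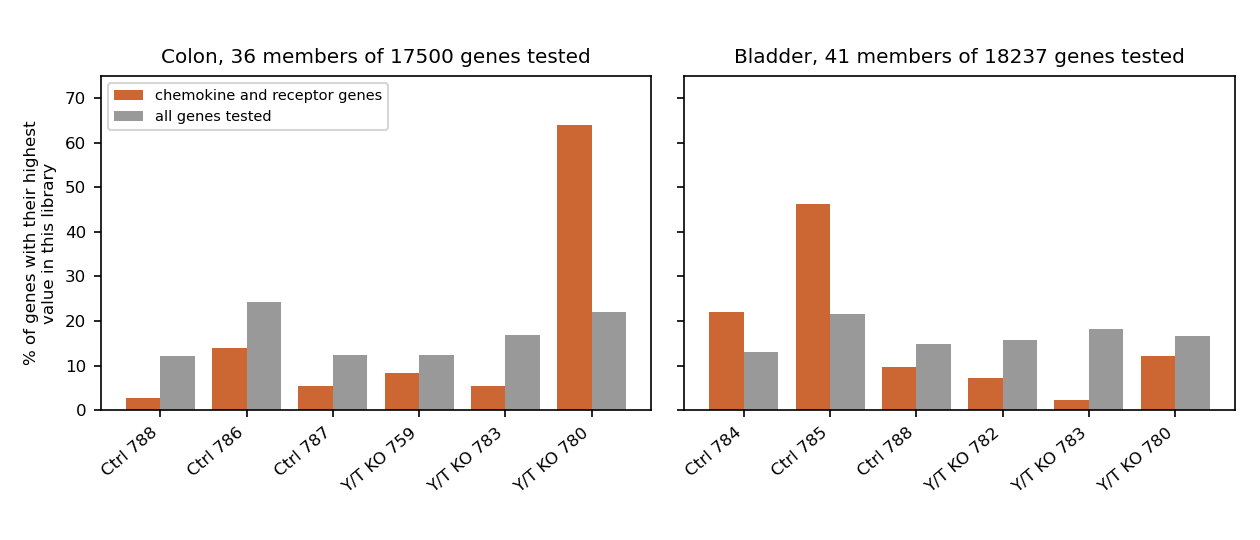
Share of genes with their highest rescaled TPM in each library of a tissue (percent, bars from 0), for the chemokine and receptor genes tested (orange) and for all genes tested (grey). The colon of Y/T KO mouse 780 (63.9% of members) and the bladder of Ctrl mouse 785 (46.3%) stand above the grey bars beside them (22% and 21.5%).

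The question of which chemokines each organ expresses was answered first. In the colon the most abundant ligand was *Ccl6*, a CC ligand of macrophages and epithelium, with a mean of 623 TPM over the 6 libraries, followed by *Cxcl12* (111 TPM), *Ccl8* (109.6 TPM), *Ccl28* (85.2 TPM), *Ccl11* (34.5 TPM), *Ccl9* (30.7 TPM), *Ccl7* (21.9 TPM), and *Cxcl14* (21.9 TPM). In the bladder *Ccl8*, a monocyte ligand, led with 393 TPM, before *Ccl6* (334 TPM), *Cxcl14* (284 TPM), *Cxcl12* (274 TPM), *Ccl9* (82.4 TPM), *Ccl2* (42.8 TPM), *Ccl11* (42.6 TPM), and *Cxcl16* (31.3 TPM). The receptor with the highest mean was *Ccr1*, a receptor of monocytes and neutrophils, in both tissues (11.7 TPM in the colon and 20.4 TPM in the bladder). Also among the leading receptors were *Cxcr4*, the receptor of CXCL12, with 7.92 TPM, *Ccr2* of inflammatory monocytes with 5.96 TPM, and *Cxcr6* with 1.23 TPM in the colon. In the bladder *Ccr2* stood at 19.2 TPM, *Cxcr4* at 15.0 TPM, and *Cxcr6* at 3.79 TPM. Neighbours in these orders overlapped between libraries in several places, as *Cxcl12* and *Ccl8* did in the colon (96.9 to 119 TPM and 33.7 to 259.7 TPM) and *Cxcl14* and *Cxcl12* in the bladder (196 to 366 TPM and 239 to 295 TPM).

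Ctrl colon and Ctrl bladder were compared in a fit of all 12 libraries, in which 44 members were tested. Limma called 25 of them, 5 higher and 20 lower in the colon, which is 56.8% of the members beside 50.4% of all genes tested. The directions were less even than those of all genes, since the 5004 genes called lower made up 25.3% and the 4959 called higher 25.1% of 19773. With TPM as deposited, where the median log2 difference of all genes was -0.24, 3510 genes were called higher and 6312 lower. In sign, 7 members lay above and 37 below 0, beside 50.7% of all genes above 0, and the median log2 difference of the members was -1.44, against 0.01 over all genes tested. Several marker lists of leukocytes and stroma also stood lower in Ctrl colon than in Ctrl bladder, since 11 of 15 macrophage markers, 6 of 8 dendritic cell markers, 8 of 9 endothelial markers, and 7 of 8 fibroblast markers were called lower. Calls in the other leukocyte lists were fewer or mixed. Of 9 B and plasma cell markers 3 were called higher and 0 lower. Of 13 T and NK cell markers 0 were called higher and 4 lower, with 11 below 0. The counts called higher and lower were 2 and 3 of 8 mast cell and eosinophil markers, and 1 and 3 of 8 neutrophil markers. The part of all these lists in the members' difference was not tested. Summed macrophage markers ran from 566 to 783 TPM in Ctrl colon and from 1304 to 1744 TPM in Ctrl bladder.

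*Ccl28*, the mucosal ligand of CCR10 and CCR3 (chromosome 13 of GRCm38, plus strand, 119623819 to 119654359), separated the organs most among members above 0 in both. It stood at 85.0, 140.9, and 84.6 TPM across the Ctrl colons and 0.683, 0.619, and 0.546 TPM across the Ctrl bladders. No colon came near a bladder, and the log2 difference was 7.38 (SE 0.19, adjusted p = 8.05e-11 by limma). *Ccl20*, the epithelial ligand of CCR6 (chromosome 1, 83116766 to 83119167), stood at 4.19, 7.94, and 8.33 TPM across the Ctrl colons and was listed at 0 in all 6 bladders. It was called with an adjusted p of 9.05e-08 by limma, and no fold is given against a group at 0. The others called higher in Ctrl colon were *Ccl25*, a ligand of the gut-homing receptor CCR9 (log2 difference 1.02, SE 0.20), *Ccl6* (1.11, SE 0.36), and *Ccr10* (1.91, SE 0.56). *Ccr10* stood at 0, 0.235, and 0.111 TPM across the Ctrl bladders and lost its call without Ctrl bladder 784. *Ccl6* lost its call with TPM taken as deposited, with a term for the libraries holding prostate transcripts, and without them, its log2 difference then being 0.84, 0.99, and 0.85, and also without Ctrl colon 788 or 786 or Ctrl bladder 784 or 788.

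Toward the bladder, the 2 abundant homeostatic ligands of stroma and epithelium showed the clearest separation. *Cxcl14* (chromosome 13, 56288643 to 56296551) stood at 20.4, 20.7, and 23.4 TPM across the Ctrl colons and 296, 366, and 267 TPM across the Ctrl bladders, a log2 difference of -3.57 (SE 0.28, adjusted p = 1.18e-06 by limma). *Cxcl12* (chromosome 6, 117168535 to 117181367), which retains cells with CXCR4, stood at 105, 116, and 96.9 TPM across the Ctrl colons and 286, 263, and 295 TPM across the Ctrl bladders (log2 difference -1.15, SE 0.09). For both ligands every bladder lay above every colon. Among the monocyte and eosinophil ligands, 5 of the 11 tested were called lower in Ctrl colon, *Ccl2*, *Ccl3*, *Ccl8*, *Ccl9*, and *Ccl24*, the last a ligand of the eosinophil receptor CCR3. Their log2 differences ran from -1.49 for *Ccl9* to -2.40 for *Ccl3*. The remaining ligands called toward the bladder were *Ccl17* (-2.10) and *Ccl22* (-2.08), which attract T cells through CCR4, *Cxcl9* (-2.53), *Cxcl3* (-2.81), *Cxcl16* (-0.77), *Ccl21c*, and *Cxcl15*, the last listed at 0 in Ctrl colon. Receptors called toward the bladder included *Ccr2* (-1.35), *Ccr4* of helper T cells (-1.59), *Cxcr3* of activated T cells (-1.88), *Cxcr4* (-1.02), and *Cxcr6* (-1.39). Without Ctrl colon mouse 787 the count called lower was 12, and without Ctrl bladder mouse 785 it was 13. When Ctrl bladder mouse 784, which held prostate transcripts, was left out, *Ccl17*, *Cxcl9*, *Ccl21c*, and *Cxcl15* lost their calls and *Ccl7* gained one. With a term for the prostate transcripts *Cxcl9* lost its call and *Ccl7* gained one.

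In Y/T KO mice the organs were compared in the same fit. Limma called 5 members higher and 8 lower in the colon, 29.5% of 44, beside 51.3% of all genes tested. Of all genes, 25.8% were called higher (5093) and 25.6% lower (5060), or 3634 and 6700 with TPM as deposited, under which 18 members lay above and 26 below 0. Members above and below 0 were 22 and 22 (50.2% of all genes were above 0), with a median log2 difference of 0.04. Without the colon of mouse 780 they were 14 and 30, with a median of -0.41. Leaving out the bladder of mouse 783 gave 16 and 28 (median -0.46), and leaving out its colon gave 26 and 18 (median 0.20). A term for the prostate transcripts gave 18 and 26 (median -0.17). The members called higher in Y/T KO colon were the same as in Ctrl, *Ccl28*, *Ccl20*, *Ccr10*, *Ccl6*, and *Ccl25*, and those called lower were *Cxcl14*, *Cxcl12*, *Ccr2*, *Cxcr6*, *Ccl8*, *Ccl24*, *Ccr3*, and *Cxcl15*. Without the 3 libraries holding prostate transcripts, which left 1 Y/T KO bladder that was assumed to vary like the other groups, 3 were called lower.

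**Figure D2:**
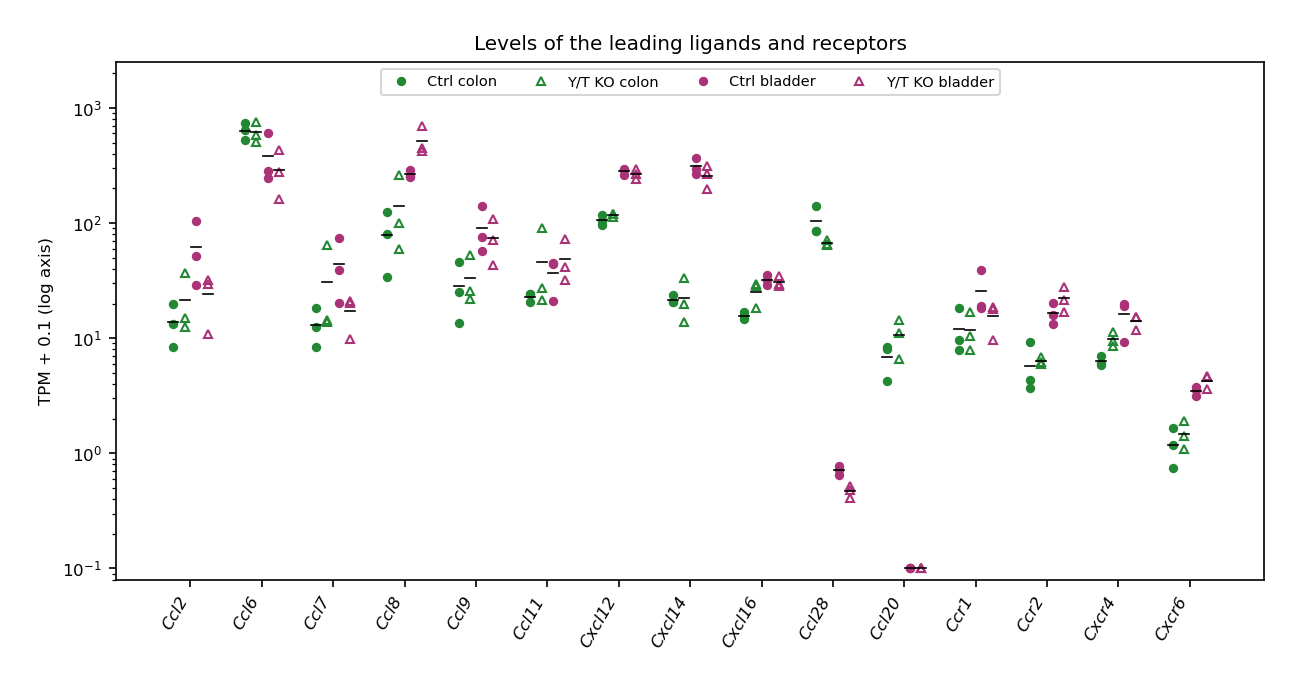
TPM plus 0.1 on a log axis of ligands and receptors with the highest means in either tissue, and of *Ccl20*, in each library (points, as deposited) with the group mean (bars); circles are Ctrl, triangles Y/T KO, green colon, and purple bladder. *Ccl28* and *Ccl20* stand apart toward the colon, *Cxcl14* and *Cxcl12* toward the bladder, and *Ccl20* lies at the added 0.1 in all bladders because it is listed at 0.

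The effect of the knockout was then examined in each tissue. In the colon 36 members passed the filter on low values, and limma called 0 of them, beside 24 of 17500 genes tested (0.137%). An unadjusted p under 0.05 was reached by 4 members on the higher side (beside 5.14% of all genes) and 1 on the lower side (beside 4.59%), together 13.9% of the members. The genotypes did not overlap for 5 members higher and 1 lower in Y/T KO, beside 8.24% and 7.87% of all genes. In sign, 25 members were above and 11 below 0, beside 50.9% of all genes above 0. In the bladder 41 were tested and 0 called, beside 55 of 18237 genes (0.302%). There an unadjusted p under 0.05 was reached by 2 members on the higher side (beside 6.64% of all genes) and 7 on the lower side (beside 8.2%). The genotypes did not overlap for 3 members higher and 8 lower, beside 10.6% and 11.4% of all genes. *Cxcl3*, counted in both lower groups, and *Ccl28*, among the 8, passed the filter only through the Ctrl bladders. Their direction was thus in part preset. In sign, 7 lay above and 34 below 0, beside 50.2% of all genes above 0. The median log2 fold change of the members was 0.31 in colon, where that of all genes tested was 0.01, and -0.50 in bladder, where that of all genes was 0.00. In libraries simulated on the real ones (17084 genes for colon and 17755 for bladder, 100 changed at each size), limma called 33 and 40 of the 100 genes changed by a log2 of 1, and 78 and 77 of those changed by 2. False calls numbered 2 for colon and 10 for bladder. The adjusted threshold depends on how many genes change, which is not known for the real libraries. These shares need not hold for the members, whose SE in the bladder ran from 0.08 (*Cxcl12*) to 2.65 (*Cxcl17*).

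These directions rested in part on single libraries. Without the colon of Y/T KO mouse 780 the colon members were 17 above and 18 below 0 of 35, with a median of -0.003. Without Ctrl bladder mouse 785 the bladder members were 11 above and 27 below 0 of 38 (median -0.42), with a term for the prostate transcripts they were 7 and 34 of 41 (median -0.57), and without the 3 libraries holding these, which left 1 Y/T KO bladder, 11 and 25 of 36 (median -0.53). Members with an unadjusted p under 0.05 were counted anew in each fit. In the bladder the count of 7 on the lower side became 2 without Ctrl mouse 785 and 3 without Ctrl mouse 788. It became 4 without Y/T KO mouse 783 and 11 without Ctrl mouse 784. In the colon the count of 4 on the higher side became 3 without Ctrl mouse 788 or 787 or Y/T KO mouse 780. It became 6 without Y/T KO mouse 759 or 783, and 2 in a fit of all 12 libraries. No member was called in either genotype comparison under any alternative run.

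**Figure D3:**
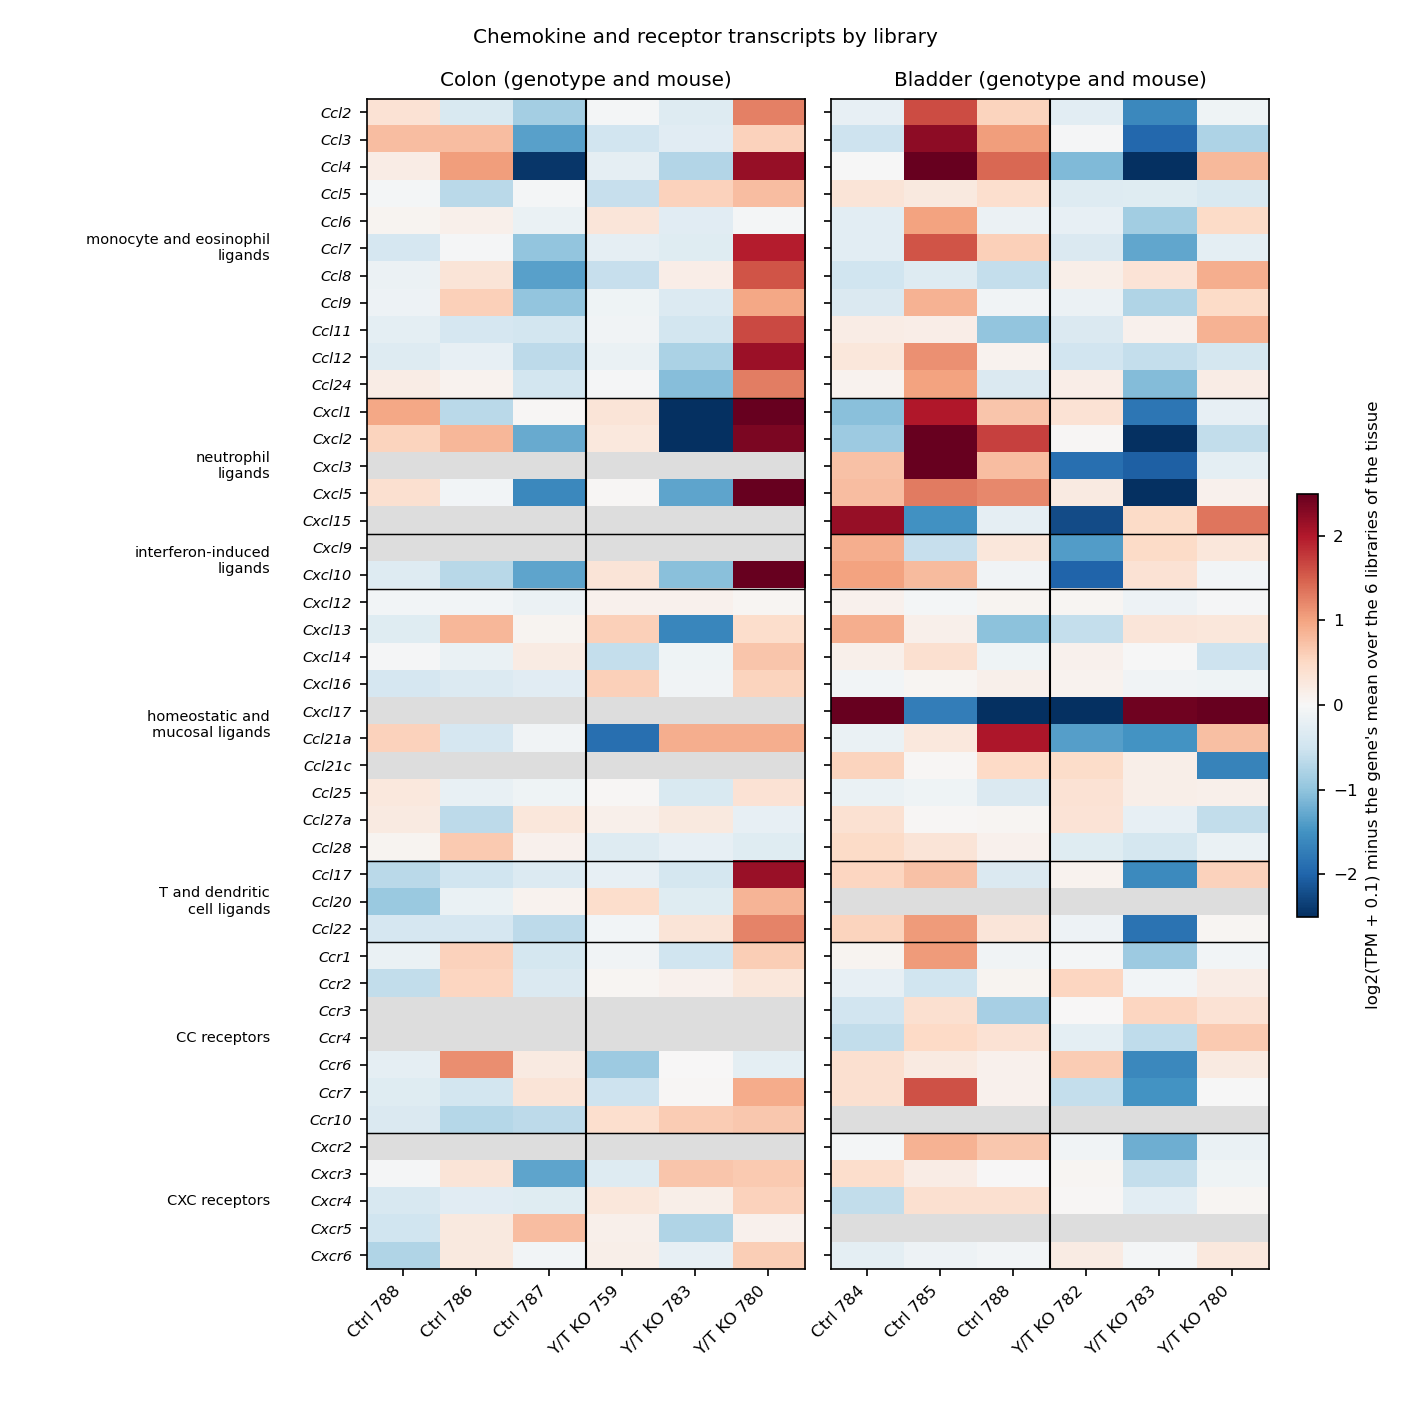
Log2(TPM + 0.1) of the members tested, 1 of which is not drawn, minus the gene's mean over the 6 libraries of the tissue (red above, blue below, grey not tested in that tissue; colours end at 2.5 in either direction), by library and by role of the member. Red gathers in the colon of Y/T KO mouse 780 and the bladder of Ctrl mouse 785, and blue in the bladder of Y/T KO mouse 783.

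**Figure D4:**
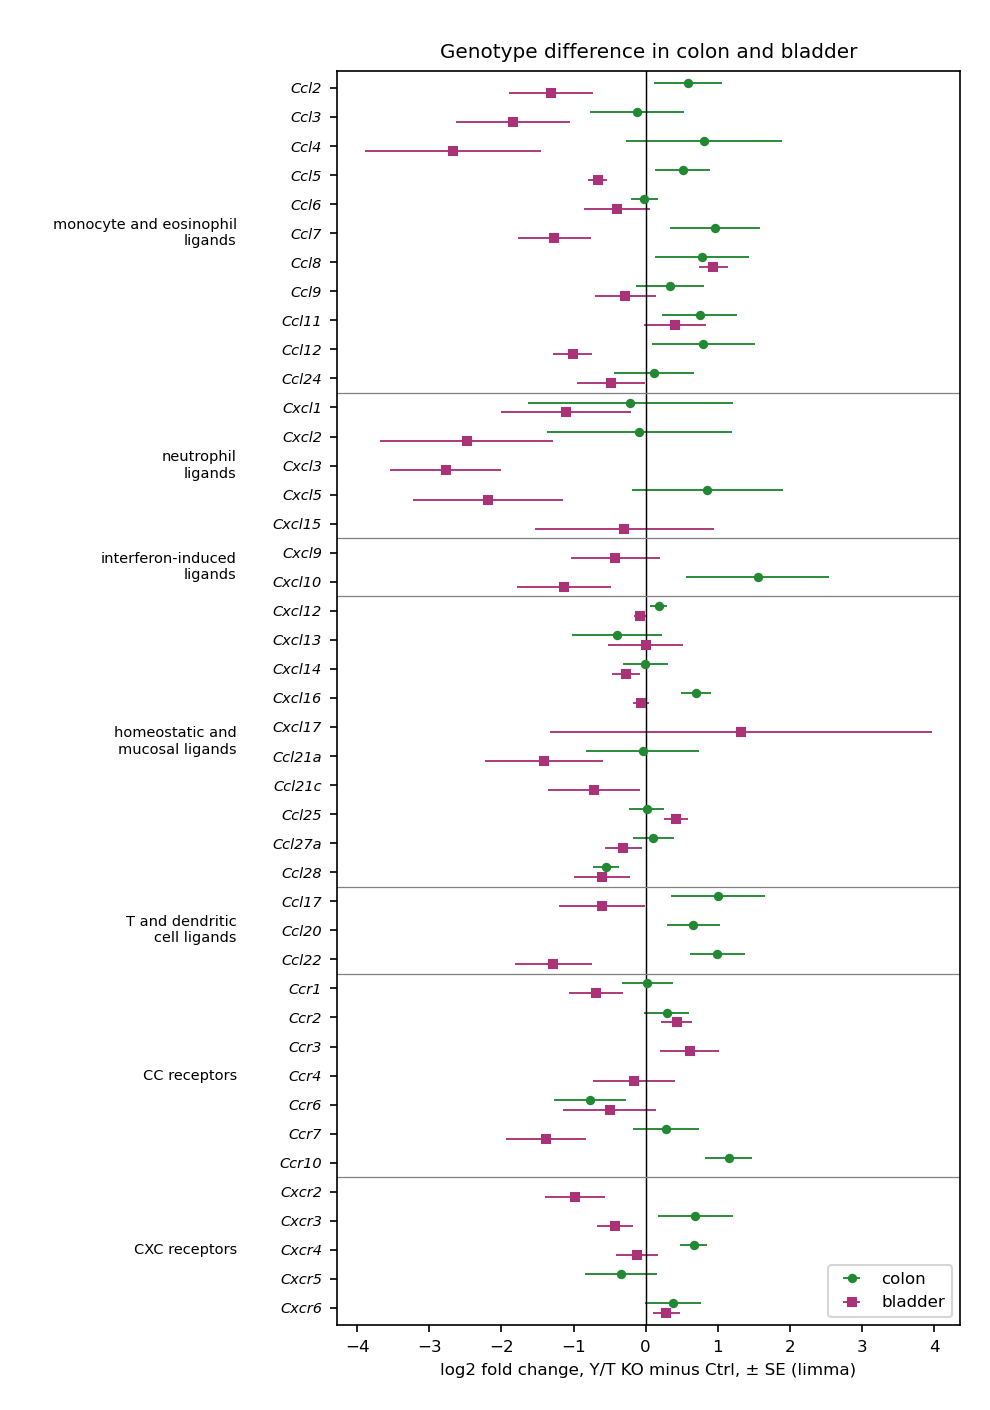
Log2 fold change of Y/T KO against Ctrl with its SE from limma, for the members tested, in colon (circles) and bladder (squares), by role of the member. Most bladder points lie left of 0 and most colon points right of it, no point passed an adjusted p of 0.05, and 1 member is not drawn.

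Ligands that attract monocytes and eosinophils come first. All 11 were tested in both tissues; 9 lay above 0 in the colon (median 0.58) and 9 below 0 in the bladder (median -0.67). The genes of *Ccl2*, *Ccl7*, *Ccl11*, *Ccl12*, *Ccl8*, and *Ccl1* lie next to each other on chromosome 11 from 82035571 to 82305690, and all but *Ccl1* were tested. In the colon these 5 were all above 0, though *Ccl12* turned from 0.80 to -0.070 without Y/T KO mouse 780, whereas in the bladder *Ccl8* and *Ccl11* were above and *Ccl2*, *Ccl7*, and *Ccl12* below 0. *Ccl8*, which encodes MCP-2, stood at 253.6, 291, and 252 TPM across the Ctrl bladders and 422, 449, and 692 TPM across the Y/T KO bladders. Every Y/T KO bladder lay above every Ctrl bladder, and the log2 fold change came to 0.94 (SE 0.20, 95% interval 0.46 to 1.41, adjusted p = 0.141 by limma). Without the 3 libraries holding prostate transcripts the log2 fold change was 0.61, given with no test because 1 Y/T KO bladder was then left against 2 Ctrl bladders. In the colon *Ccl8* overlapped between genotypes, with 79.9, 124, and 33.7 TPM across the Ctrl mice and 59.96, 100.7, and 259.7 TPM across the Y/T KO mice (log2 fold change 0.78, SE 0.65, and 0.19 without mouse 780).

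*Ccl12*, the neighbour of *Ccl8* and a ligand of CCR2, stood the other way in the bladder, at 16.6, 30.8, and 15.4 TPM across the Ctrl mice and 10.4, 8.87, and 10.3 TPM across the Y/T KO mice. The groups did not overlap, and the log2 fold change came to -1.01 (SE 0.27, adjusted p = 0.189 by limma). *Ccl7* values were 20.3, 73.9, and 38.9 TPM across the Ctrl bladders and 20.2, 9.69, and 21.0 TPM across the Y/T KO bladders (log2 fold change -1.27, SE 0.51). *Ccl2*, the classic monocyte ligand MCP-1, had 28.6, 105, and 51.6 TPM across the Ctrl bladders and 29.3, 10.7, and 31.7 TPM across the Y/T KO bladders (log2 fold change -1.32, SE 0.58). For *Ccl2* and *Ccl7* the groups overlapped, and mouse 785 was the highest. Without it the fold changes of *Ccl2*, *Ccl7*, and *Ccl12* were -0.83, -0.80, and -0.69. Within a library, the log2 ratio of *Ccl8* to the mean of *Ccl2*, *Ccl7*, and *Ccl12* was 3.57, 2.23, and 3.00 in Ctrl bladder and 4.51, 5.52, and 5.18 in Y/T KO bladder, a difference of 2.14 (exact two-sided permutation test, p = 0.10, the smallest 3 against 3 allow). In the colon the same ratio averaged 2.68 in both genotypes (SD 0.53 in Ctrl and 0.56 in Y/T KO). The ratio was chosen after these values were seen. In every Y/T KO bladder *Ccl8* was already higher and *Ccl12* already lower, so the p of the ratio adds nothing to them.

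*Ccl5* (RANTES, chromosome 11, 83525778 to 83530518), a T cell and NK cell product that attracts T cells and monocytes, had the smallest p of the bladder members. Its values were 9.61, 9.27, and 10.9 TPM across the Ctrl bladders and 6.49, 6.07, and 6.06 TPM across the Y/T KO bladders, without overlap and with little spread in either group (log2 fold change -0.67, SE 0.13, adjusted p = 0.119 by limma). In the colon it stood at 5.53, 3.94, and 5.40 TPM across the Ctrl mice and 3.84, 8.65, and 9.64 TPM across the Y/T KO mice. The summed T and NK cell markers ran from 35.4 to 56.5 TPM in Ctrl bladder and from 30.4 to 39.3 TPM in Y/T KO bladder, with 11 of 13 tested below 0, and from 27.2 to 28.0 and from 30.4 to 49.9 TPM in the colon, with 9 of 11 above 0. Their part in the *Ccl5* values was not tested. *Ccl6*, the ligand with the highest mean in the colon, did not separate the genotypes there (638, 742, and 524 TPM across the Ctrl mice and 749, 505, and 581 TPM across the Y/T KO mice). *Ccl11*, the eosinophil ligand eotaxin, stood at 27.4, 21.3, and 89.6 TPM across the Y/T KO colons and at 20.5 to 24.2 TPM in Ctrl colon, so that its difference lay in mouse 780.

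Neutrophils are attracted by CXC ligands that carry an ELR motif and bind CXCR2. The genes of *Cxcl5*, *Cxcl3*, *Cxcl15*, *Cxcl1*, and *Cxcl2* lie together on chromosome 5 from 90759360 to 90905938. In the bladder all 5 were tested and lay below 0 (median log2 fold change -2.18), and in the colon 1 of 3 tested lay above 0. *Cxcl3* (90786103 to 90789600) stood at 0.801, 3.38, and 0.874 TPM across the Ctrl bladders and 0.052, 0.033, and 0.373 TPM across the Y/T KO bladders. No Y/T KO bladder reached a Ctrl bladder. The log2 fold change came to -2.77 (SE 0.77, adjusted p = 0.198 by limma), falling in size to -1.10 with a pseudocount of 1 TPM. No Y/T KO bladder reached 0.5 TPM, so that *Cxcl3* passed the filter only through the Ctrl bladders. Its direction, separation, and p were thus in part preset. *Cxcl5* also did not overlap, with 17.1, 25.1, and 24.5 TPM across the Ctrl bladders and 12.4, 0.721, and 11.1 TPM across the Y/T KO bladders (log2 fold change -2.18, SE 1.05). *Cxcl1* (3.46, 30.3, and 12.6 TPM across the Ctrl mice and 10.02, 1.98, and 6.51 TPM across the Y/T KO mice, log2 fold change -1.10) overlapped between genotypes. *Cxcl2* had 1.07, 16.9, and 7.55 TPM across the Ctrl bladders and 2.27, 0.150, and 1.38 TPM across the Y/T KO bladders, again with mouse 785 the highest (log2 fold change -2.48). Without mouse 785 the fold change of *Cxcl1* was -0.37, and without Y/T KO mouse 783 those of *Cxcl2* and *Cxcl5* were -1.53 and -0.93.

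Markers of neutrophils were read beside these ligands. In the bladder *S100a8* stood at 18.4, 57.3, and 48.7 TPM across the Ctrl mice and 31.3, 5.14, and 21.3 TPM across the Y/T KO mice, and *Il1b*, an inducer of these ligands, at 3.75, 27.9, and 16.8 TPM and 4.32, 1.91, and 4.91 TPM. Over the whole list, 5 of the 10 neutrophil markers were tested in the bladder and all 5 lay below 0, with a summed level of 65.9 to 210 TPM (210.2 at most) in Ctrl and 35.3 to 107 TPM in Y/T KO. *Elane* was listed at 0 in all 12 libraries. In the colon the sum ran from 135 to 199 TPM in Ctrl and from 116 to 360 TPM (359.7) in Y/T KO, the highest in mouse 780, whose *S100a8* and *Il1b* stood at 63.9 and 39.1 TPM. Most of the colon sum was 1 gene, *Ly6g*, with 112 to 201 TPM in the colons and 0.299 TPM at most in the bladders. The part of neutrophils in the ligand values was not tested.

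The promoters of *Cxcl1*, *Cxcl2*, and *Cxcl3* are shown for what they share, those of *Ccl12* and *Ccl8* because these neighbours stood in opposite directions in the bladder. The first group was picked from the ELR ligands, all of which lay below 0 in the bladder, and leaves out *Cxcl5* and *Cxcl15*. The 5 promoters were chosen after the values were seen. Each line gives the 250 bases before the RefSeq start of the gene on the plus strand of GRCm38.p6, at chr5:90890995-90891244, chr5:90903649-90903898, chr5:90785851-90786100, chr11:82101595-82101844, and chr11:82114935-82115184. Capitals mark matches, on either strand, to the kappa-B motif, which NF-kappa-B binds, and to GGAATG, the core bound by the TEAD partners of YAP and TAZ.
Cxcl1: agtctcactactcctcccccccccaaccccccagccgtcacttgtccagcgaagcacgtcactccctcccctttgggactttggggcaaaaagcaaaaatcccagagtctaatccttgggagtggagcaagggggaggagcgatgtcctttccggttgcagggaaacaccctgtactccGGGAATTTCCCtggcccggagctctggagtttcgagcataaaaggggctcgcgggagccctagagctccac
Cxcl2: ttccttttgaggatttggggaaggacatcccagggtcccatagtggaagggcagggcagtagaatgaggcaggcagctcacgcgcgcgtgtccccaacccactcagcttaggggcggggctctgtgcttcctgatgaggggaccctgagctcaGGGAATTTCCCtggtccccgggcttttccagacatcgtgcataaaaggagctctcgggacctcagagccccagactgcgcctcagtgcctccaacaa
Cxcl3: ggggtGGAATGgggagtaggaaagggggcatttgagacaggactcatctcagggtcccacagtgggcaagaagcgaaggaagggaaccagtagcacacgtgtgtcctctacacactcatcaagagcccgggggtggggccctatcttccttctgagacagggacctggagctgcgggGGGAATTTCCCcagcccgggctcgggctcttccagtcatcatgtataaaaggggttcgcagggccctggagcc
Ccl12: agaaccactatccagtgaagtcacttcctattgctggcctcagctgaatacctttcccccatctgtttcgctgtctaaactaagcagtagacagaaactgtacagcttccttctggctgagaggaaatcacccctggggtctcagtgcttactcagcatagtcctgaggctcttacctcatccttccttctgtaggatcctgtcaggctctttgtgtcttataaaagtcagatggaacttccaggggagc
Ccl8: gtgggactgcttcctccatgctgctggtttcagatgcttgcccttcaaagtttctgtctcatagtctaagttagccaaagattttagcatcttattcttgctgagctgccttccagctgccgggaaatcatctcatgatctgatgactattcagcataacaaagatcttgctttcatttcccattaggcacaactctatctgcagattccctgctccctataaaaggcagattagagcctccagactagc

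All 3 *Cxcl* promoters held the same 11 letters, GGGAATTTCCC, which read as a pair of overlapping kappa-B matches from 71 to 61 bases before the start in *Cxcl1*, from 97 to 87 in *Cxcl2*, and from 73 to 63 in *Cxcl3*. The TEAD core of *Cxcl3* lay from 245 to 240 bases before its start. Of the 53 symbols 37 matched the promoter table, with 44 promoters. A kappa-B match was found in 8 of the 44 (18.2%), beside 3.90% of the 32851 promoters of the same length, and the TEAD core GGAATG in 6 (13.6%), beside 12.6%. Neither *Cxcl5* nor *Cxcl15* was among those with a kappa-B match, for want of a match or of a promoter entry. The shared letters therefore do not cover all ELR ligands that lay below 0. TGANTCA, the AP-1 site, was in 6 (13.6%, beside 6.75%) and the interferon response element, searched as GAAA, any 2 letters, and GAAA, in 3 (6.82%, beside 2.98%), among them *Cxcl10*, while the CArG box of serum response factor was in 0 of 44 (beside 1.47%). These are descriptions of letters and not of binding.

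Interferon-induced ligands call in T cells through CXCR3. *Cxcl10* stood at 2.85, 2.44, and 1.34 TPM across the Ctrl colons and 4.54, 1.72, and 29.8 TPM across the Y/T KO colons, the last being mouse 780. *Cxcl9* followed in the same colon, with 6.90 TPM against 0.145 to 0.562 TPM in the other 5 colons, and it did not pass the filter there. In the bladder both were tested and both lay below 0, with overlap. *Cxcl11* reached 0.703 TPM at most and was tested in neither genotype comparison. Its gene and that of *Cxcl10* lie on the strand opposite *Art3*, which averaged 202 TPM (202.5), and how the strand was set in the authors' counting is not given in the sources used here. The same limit holds for *Ccl27a*, *Ccl25*, *Cxcl16*, *Cxcr6*, and *Cxcr5*, which overlap *Il11ra1*, *Elavl1*, *Zmynd15*, *Fyco1*, and *Bcl9l* on the opposite strand.

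Homeostatic and mucosal ligands numbered 8 tested in colon, 4 of them above 0 (median 0.00), and 10 in bladder, 2 above 0 (median -0.18). In the colon *Ccl28* stood at 85.0, 140.9, and 84.6 TPM across the Ctrl mice and 65.4, 70.6, and 64.6 TPM across the Y/T KO mice. The groups did not overlap, and the log2 fold change came to -0.55 (SE 0.18, adjusted p = 0.435 by limma), or -0.37 without Ctrl mouse 786. The summed colon epithelial markers were also lower in Y/T KO colon, at 3305 to 4330 TPM (4330.4 at most) against 4602 to 5251 TPM in Ctrl, with 5 of 8 tested below 0. Among them *Car1* (1157 to 1553 TPM in Ctrl and 300 to 891 TPM in Y/T KO) and *Slc26a3* (403 to 689 and 182 to 362 TPM) did not overlap. *Epcam* (1476 to 1822 and 1488 to 1813 TPM) and *Cdx2* (30.0 to 69.4 and 58.5 to 89.7 TPM) overlapped, so the sum does not stand for the epithelium as a whole. The part of these markers was not tested. *Cxcl16*, a membrane-bound ligand that also acts as a scavenger receptor (chromosome 11, minus strand, 70453983 to 70459984), stood at 14.4, 16.9, and 15.5 TPM across the Ctrl colons and 29.4, 18.3, and 28.0 TPM across the Y/T KO colons. Each Y/T KO colon lay above each Ctrl colon (log2 fold change 0.70, SE 0.21, adjusted p = 0.404 by limma). In the bladder *Cxcl16* ran from 28.01 to 35.03 TPM over both genotypes. *Cxcl12* differed little between genotypes in the colon (105, 116, and 96.9 TPM against 119, 119, and 112 TPM) and in the bladder (286, 263, and 295 TPM against 293, 239, and 267 TPM). *Ccl25* stood at 5.13, 5.45, and 4.70 TPM across the Ctrl bladders and 7.95, 6.26, and 6.45 TPM across the Y/T KO bladders, without overlap (log2 fold change 0.42, SE 0.16, adjusted p = 0.306 by limma).

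A further pair of bladder members followed the prostate transcripts. *Cxcl17*, a mucosal ligand, stood at 16.4, 10.8, and 32.1 TPM in the bladders of mice 784, 783, and 780, the 3 with *Sbp* above 1000 TPM, and at 0.530, 0.123, and 0 TPM in mice 785, 788, and 782. *Cxcl15* (lungkine) stood at 4.17, 1.19, and 2.34 TPM in the same 3 libraries and at 0.237, 0.755, and 0.108 TPM in the others. Both overlapped between genotypes, and the fold changes of *Cxcl17* (log2 1.32, SE 2.65) and *Cxcl15* (-0.29, SE 1.24) had the widest errors of their subgroups.

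*Ccl19* and *Ccl21*, the ligands of CCR7 made in lymphoid tissue and lymphatic vessels, and *Ccl27* occur in several near-identical copies on chromosome 4 and on unplaced scaffolds. With copies of at least 95% identity over at least 80% of the shorter transcript counted together, the *Ccl21* family of 9 gene IDs summed to 19.6, 10.8, and 11.6 TPM across the Ctrl colons and 7.88, 25.6, and 25.9 TPM across the Y/T KO colons. In the bladder the sums were 16.2, 21.6, and 69.1 TPM and 12.1, 8.72, and 31.2 TPM. The groups overlapped in both tissues, and the split of reads between copies is uncertain. The 8 IDs of the *Ccl27* family summed to 5.95 to 10.2 TPM in the colon and 6.38 to 12.8 TPM in the bladder, nearly all under 1 ID of *Ccl27a*.

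The ligands of CCR4, CCR6, and CCR8 that act on T and dendritic cells numbered 3 tested in the colon, all above 0, and 2 in the bladder, both below. *Ccl22* (chromosome 8, 94745590 to 94751699), a dendritic cell and macrophage ligand of CCR4, separated the genotypes in both tissues and in opposite directions. In the colon it stood at 0.957, 1.08, and 0.782 TPM across the Ctrl mice and 1.26, 1.697, and 3.22 TPM across the Y/T KO mice (log2 fold change 0.99, SE 0.39, adjusted p = 0.488 by limma). Bladder values were 4.64, 6.81, and 4.11 TPM across the Ctrl bladders and 3.06, 0.792, and 3.34 TPM across the Y/T KO bladders (log2 fold change -1.28, SE 0.53, adjusted p = 0.334 by limma). Without Y/T KO mouse 780 the colon value was 0.62, and without Y/T KO mouse 783 the bladder value was -0.68. *Ccl17*, the other ligand of CCR4 and its neighbour on chromosome 8, stood at 1.61, 1.37, and 8.53 TPM across the Y/T KO colons against 1.14 to 1.43 TPM in Ctrl. *Ccl20* stood at 4.19, 7.94, and 8.33 TPM across the Ctrl colons and 11.0, 6.53, and 14.4 TPM across the Y/T KO colons, with overlap.

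Of the 16 receptors, 10 passed the filter in colon and 11 in bladder, and 0 were called. In the colon 7 lay above 0 and 3 below, and in the bladder 3 and 8. *Ccr10*, the receptor of CCL27 and CCL28 on IgA plasma cells (chromosome 11, minus strand, 101172997 to 101175443), stood at 0.632, 0.524, and 0.483 TPM across the Ctrl colons and 1.16, 1.37, and 1.37 TPM across the Y/T KO colons. No library of one group reached the other, and the log2 fold change came to 1.15 (SE 0.32, adjusted p = 0.372 by limma), or 0.59 with a pseudocount of 1 TPM. The gene lies opposite *Cntnap1*, which averaged 2.97 TPM. The log2 ratio of *Ccr10* to its ligand *Ccl28* in the colon, chosen after the values were seen, was -6.86, -7.82, and -7.18 in Ctrl and -5.70, -5.59, and -5.46 in Y/T KO. Every Y/T KO colon was already higher in *Ccr10* and lower in *Ccl28*. The ratio therefore had to separate the genotypes, and its permutation p was fixed in advance. In the bladder, with *Ccr10* at 0.263 TPM at most, the ratio differed by 0.28 (exact two-sided permutation test, p = 0.8). The summed B and plasma cell markers ran from 7135 to 8112 TPM in Ctrl colon and from 5905 to 8143 TPM in Y/T KO colon, with 2 of 9 tested above 0.

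*Cxcr4* (chromosome 1, minus strand, 128588199 to 128592293) stood at 5.73, 6.88, and 5.96 TPM across the Ctrl colons and 9.34, 8.45, and 11.2 TPM across the Y/T KO colons. Again the genotypes did not overlap (log2 fold change 0.66, SE 0.19, adjusted p = 0.372 by limma). In the bladder they did, with 9.21, 19.0, and 19.9 TPM across the Ctrl mice and 15.3, 11.7, and 15.2 TPM across the Y/T KO mice. *Ccr7*, the receptor that guides dendritic cells to lymph nodes, stood at 1.49, 3.59, and 1.27 TPM across the Ctrl bladders and 0.749, 0.327, and 1.14 TPM across the Y/T KO bladders (log2 fold change -1.39, SE 0.55, adjusted p = 0.317 by limma). For *Ccr7* the groups did not overlap. *Cxcr2*, the neutrophil receptor of the ELR ligands, stood at 1.703, 3.38, and 3.05 TPM across the Ctrl bladders and 1.78, 0.694, and 1.62 TPM across the Y/T KO bladders. *Ccr2* and *Cxcr6* lay above 0 in both tissues, *Cxcr6* in the bladder without overlap (3.07, 3.43, and 3.69 TPM across the Ctrl mice and 4.50, 3.49, and 4.56 TPM across the Y/T KO mice).

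**Figure D5:**
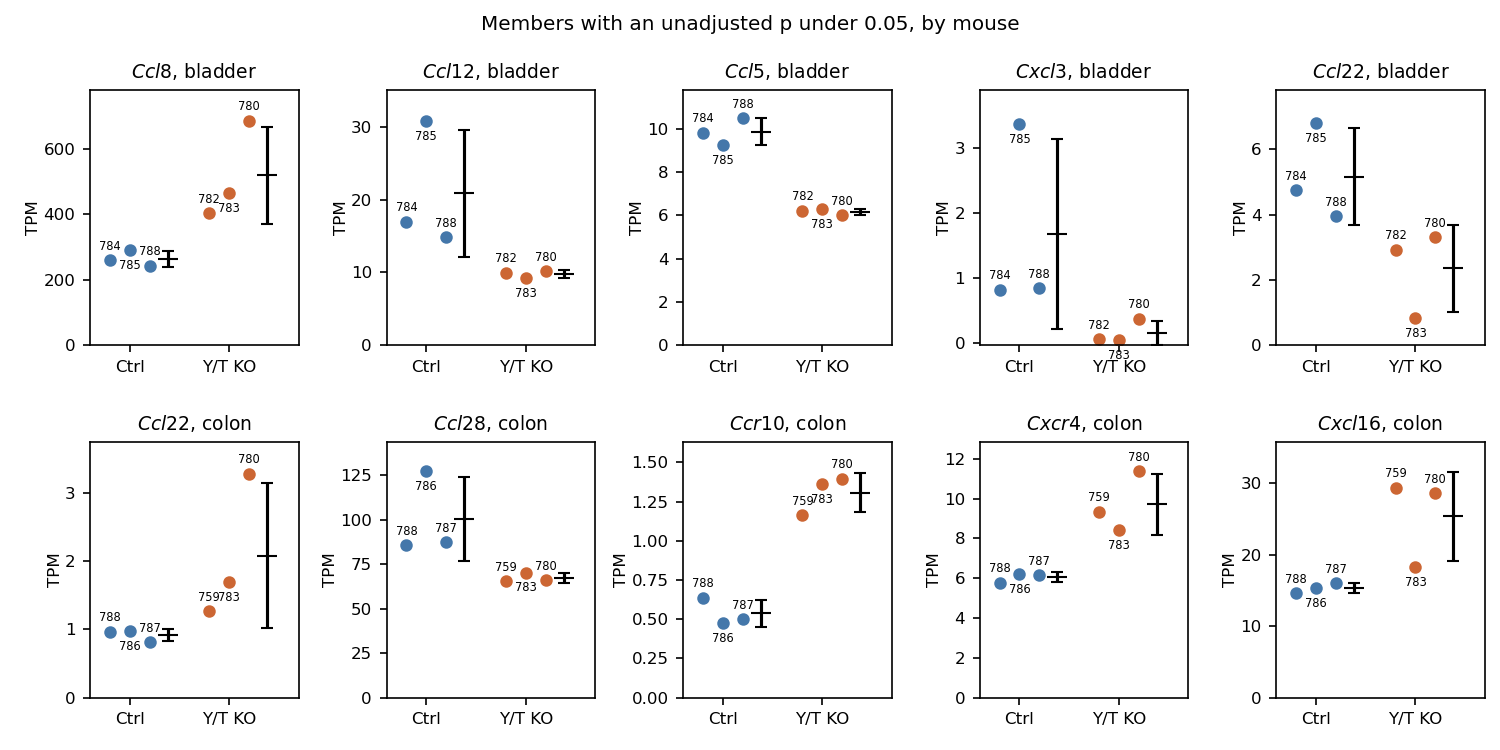
Rescaled TPM by mouse (points with mouse numbers) with mean and SD beside them, for 10 of the member and tissue pairs with an unadjusted p under 0.05. Ctrl is blue and Y/T KO orange. None of the pairs shown overlaps between genotypes, whereas *Ccl7* in the bladder, which also had such a p and is not drawn, does. Mouse 785 is the highest Ctrl bladder for *Ccl8*, *Ccl12*, *Cxcl3*, and *Ccl22*. *Cxcl3* passed the filter only through the Ctrl bladders.

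A different effect of the knockout in the 2 organs was tested for with the interaction term over all 12 libraries. Of 44 members tested limma called 0, beside 12 of 19773 genes (0.0607%), and 8 had an unadjusted p under 0.05, all toward a higher effect in the colon, beside 6.43% of all genes in that direction. Counted anew in each fit, such members numbered 5 without the colon of Y/T KO mouse 780 and 4 without that colon and Ctrl bladder 785. They numbered 12 without the colon of Y/T KO mouse 783. With all libraries they were *Ccl22* (log2 difference of effects 2.25, SE 0.68, adjusted p = 0.265 by limma), *Cxcl3* (3.35, SE 1.07), *Ccl21c* (2.80, SE 0.89), *Cxcl16* (0.74, SE 0.24), *Ccl5* (1.16, SE 0.43), *Ccl7* (2.20, SE 0.89), *Ccl2* (1.88, SE 0.82), and *Ccr7* (1.64, SE 0.73). For *Ccl8*, which lay above 0 in both organs, the interval of the difference was -1.83 to 1.47. The interaction was above 0 for 37 of 44 members, beside 47.6% of all genes, with a median of 0.72, and without the colon of mouse 780 and the bladder of mouse 785 it was above 0 for 26 of 42 with a median of 0.35. Of the mice that gave both tissues, mouse 780 held the highest value of 23 of 36 colon members and 5 of 41 bladder members, and mouse 783 the lowest value of 10 of 36 colon members (27.8%, beside 16.7% of all genes) and 24 of 41 bladder members.

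Other parts of the chemokine system gave 0 calls in either genotype comparison. Of 14 further ligands, receptors, and scavenging receptors, among them *Cx3cl1* and *Ackr3*, 13 were tested; 8 lay above 0 in the colon and 7 in the bladder. Of 26 genes of receptor signalling, such as G protein subunits, arrestins, and *Dock2*, 13 lay above 0 in colon and 6 in bladder, with medians of 0.01 and -0.09. Of the inducers of chemokine genes (such as cytokines and NF-kappa-B and AP-1 subunits), 12 of 14 lay above 0 in the colon, with a median of 0.32. In the bladder 4 of 15 lay above 0, with a median of -0.36. Macrophage markers lay above 0 for 10 of 15 in the colon, where their sum was 566 to 783 TPM in Ctrl and 689 to 1042 TPM in Y/T KO, and for 6 of 15 in the bladder, where it was 1304 to 1744 and 1094 to 1527 TPM. Above 0 in the colon and bladder were 6 and 3 of 8 dendritic cell markers, 5 of 9 and 7 of 9 endothelial markers, 6 and 5 of 8 fibroblast markers, 5 of 8 and 3 of 7 mast cell and eosinophil markers, 2 and 5 of 7 enteric nerve and glia markers, and 0 of 5 and 3 of 4 adipocyte and lymph node markers. Of the B and plasma cell markers 3 of 9 lay above 0 in the bladder, and of the urothelial markers 2 of 6 in the colon and 1 of 9 in the bladder. No marker on these lists was called between genotypes.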

How the data were processed

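Total RNA from whole colon and bladder was sequenced as stranded polyA libraries. Per the submitters' processing notes the tools were bcl2fastq, FastQC, HISAT2, StringTie, and DESeq2 with build GRCm38. The authors deposited 1 StringTie table per library, with coverage, FPKM, and TPM for each gene. The authors' TPM values had been divided by transcript length and library total, the deposited FPKM values gave an alternative fit, and the deposited coverage was used only to estimate aligned bases. Tables held no counts, so a count test was not used.

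Here TPM was summed by gene ID, rescaled by median-of-ratios size factors (within a tissue, or over all 12 libraries for comparisons between tissues), and tested as log2(TPM + 0.1) with limma 3.58.1 in R 4.3.3 (trend and robust options), for genes of at least 0.5 TPM in at least 3 libraries, with Benjamini-Hochberg adjustment over all genes tested. The fits were tested on simulated data. Genotype comparisons used 6 libraries, and comparisons between tissues and the interaction used a 4-group fit of 12. Exact permutation tests of 3 libraries against 3 were run on log ratios within libraries. The log2 ratio of *Cxcr6* to *Cxcl16* differed between genotypes by -0.32 in the colon and 0.35 in the bladder. That of *Cxcr4* to *Cxcl12* differed by 0.48 and -0.04. Near-identical copies were found with blastn 2.17.0, and promoters came from RefSeq (GRCm38.p6), with plots by matplotlib 3.10.9.

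Named members were those called in any comparison, those with an unadjusted p under 0.05 between genotypes, and the 8 ligands and 5 receptors with the highest mean TPM in each tissue; others named were chosen after their values were seen. The members and gene lists were chosen with earlier results of these data known, and the prostate and striated muscle lists after the values were seen. Mice 788, 783, and 780 gave both tissues, so the mouse was a block in an alternative fit. Deviations of the same mouse from its group means correlated at -0.01, 0.07, and 0.04 between tissues over all genes, and at 0.24, 0.22, and 0.27 over the members. Pairs of different mice of the same genotype ran from -0.35 to 0.29 over the members, a range that holds the same-mouse values. Alternatives were other pseudocounts, no filter, TPM or FPKM as deposited, limma without its options, an adjusted p of 0.1, and leaving out libraries. The values of 1 member are not reported here, although the counts over members and lists include every gene tested.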

Additional observations from a re-analysis of the deposited data

How the results depend on the processing

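In both genotype comparisons and the interaction, limma called 0 members under every alternative run, including an adjusted p of 0.1, no filter on low values, FPKM, and each left-out library. In the fits with the mouse as a replicate block the counts were likewise 0 in these 3 comparisons, 5 higher and 20 lower for Ctrl colon against Ctrl bladder, and 5 higher and 8 lower for Y/T KO, as without the block, so that pairing changed no count of calls. Leaving out each library in turn, the members called for Ctrl colon against Ctrl bladder ranged from 3 to 5 higher (3 without Ctrl bladder 784) and from 12 to 25 lower (12 without Ctrl colon 787, 13 without Ctrl bladder 785), and for Y/T KO from 4 to 6 higher and from 5 to 9 lower (5 without Y/T KO colon 783). Without the libraries holding prostate transcripts, an alternative chosen after seeing the data that left 1 Y/T KO bladder, 3 members were called lower in Y/T KO colon; the cause was not tested. TPM as deposited moved the median log2 difference of all genes from 0.01 to -0.24 in Ctrl and to -0.26 in Y/T KO. Genes called higher and lower then numbered 3510 and 6312 in Ctrl, against 4959 and 5004. *Ccl12* in the colon turned from 0.80 to -0.070 without Y/T KO mouse 780 and ranged up to 1.39 on the log2 scale when other libraries were left out. Without the same library *Ccl8* and *Ccl22* in the colon were 0.19 and 0.62. In the bladder, without Ctrl mouse 785 *Ccl2*, *Ccl7*, and *Ccl12* were -0.83, -0.80, and -0.69, and without Y/T KO mouse 783 *Ccl22*, *Cxcl2*, and *Cxcl5* were -0.68, -1.53, and -0.93. Over the alternatives that kept at least 2 libraries per group, the adjusted p from limma of *Ccl8* in the bladder ran from 0.086 to 0.515 and that of *Ccl5* from 0.106 to 0.404. With no counts deposited, counting error for low members such as *Ccr10* and *Cxcl3* is not known.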
